A study of Schizosaccharomyces pombe with 2 samples.

Results

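The fission yeast Schizosaccharomyces pombe carries 2 genes for the ribosomal protein eL18, rpl1802 (SPAPB17E12.13) and rpl1801 (SPBC11C11.07). They are 2 of the 1144 genes whose exonic, mature and premature transcripts were counted by multiplexed primer extension sequencing. In that assay, gene-specific primers start reverse transcription near introns of many transcripts at once. The RNA came from a wild-type Bioneer strain, started from a single colony and kept at 30 °C in YES, a rich medium, until log phase (OD600 of 0.8). There were 2 libraries of this 1 group, wild-type replicate 1 and wild-type replicate 2, and no other strain, treatment or time. The labels do not say whether they came from separate cultures, so the spread between them may be technical. The pair was chosen by gene name, with the unspliced shares and the counts of both copies in both libraries already known. Those values are therefore given as a description, and no test was run on them.

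Ribosomal proteins are needed in very large amounts by growing cells. Many fission yeast ribosomal protein genes exist as duplicated copies that encode nearly the same protein. eL18 is a component of the large, 60S, ribosomal subunit. A transcript with an intron must be spliced in the nucleus, at the 5′ and 3′ splice sites and a branch site between them, before it can be translated into the full protein.

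In the RefSeq annotation of assembly ASM294v3, each copy has 1 intron, and in both it directly follows the start codon, so that exon 1 holds 3 coding bases only. The intron of rpl1802 is 71 nt long, at chrI:1285630-1285700 on the plus strand. The intron of rpl1801 is 52 nt long, at chrII:3361820-3361871, also on the plus strand. The deposited files give no coordinates and their genome build is not given in the sources used here, so these positions are RefSeq's alone. Both introns are printed because the mature and premature counts of the pair are taken to refer to them. Each line runs from the start codon through the intron to the first 24 coding bases of exon 2 (chrI:1285627-1285724 and chrII:3361817-3361895), and capitals mark the first 6 bases of the intron, the branch-site-like motif CTAAT and the last 3 bases of the intron.
rpl1802: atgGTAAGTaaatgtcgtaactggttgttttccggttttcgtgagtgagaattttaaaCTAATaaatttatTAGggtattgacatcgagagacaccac
rpl1801: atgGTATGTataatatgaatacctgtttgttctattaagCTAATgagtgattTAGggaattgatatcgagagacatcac

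The splice signals of both introns were common ones. The intron of rpl1802 begins with GTAAGT, as do 380 of the 1076 single introns of the genes compared here (35.3%). That of rpl1801 begins with GTATGT, shared by 258. Both end in TAG, like 831 (77.2%). Branch-site-like motifs were searched on the strand that reads like the RNA. Both introns lack the motif CTAAC, found in 553 (51.4%), and hold CTAAT once, found in 333 (30.9%). In both, 9 bases lie between CTAAT and the closing AG. The GC content was 29.6% in rpl1802 and 26.9% in rpl1801, against a median of 29.2% over the 1076 introns. In a transcript that keeps the intron, the reading frame opened by the start codon holds 15 codons in rpl1802 and 5 in rpl1801 before a stop codon inside the intron. Aligned end to end, the introns matched at 38 of 71 alignment columns.

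The coding sequences of the copies are close relatives that differ at many positions. Both proteins are 187 residues long and are identical at 179 of them (95.7%). The coding sequences, 564 bases each, are identical at 484 positions (85.8%). The longest identical coding stretch is 23 bases, and none of the 628 windows of 25 bases in the spliced rpl1802 transcript occurs in that of rpl1801. The sources used here do not give the bases that the primers or reads covered. The 120 bases that open exon 2 are shown because a spliced or unspliced read of either gene that crosses the 3′ splice site runs into them. They lie on the plus strand of ASM294v3 at chrI:1285701-1285820 and chrII:3361872-3361991, and capitals mark the 19 positions where the genes differ.
rpl1802: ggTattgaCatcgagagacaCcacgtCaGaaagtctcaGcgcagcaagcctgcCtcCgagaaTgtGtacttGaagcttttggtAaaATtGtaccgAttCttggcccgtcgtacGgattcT
rpl1801: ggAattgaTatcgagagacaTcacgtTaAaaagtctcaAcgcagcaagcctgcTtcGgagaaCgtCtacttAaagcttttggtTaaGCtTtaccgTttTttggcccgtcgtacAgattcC

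The annotated transcripts differ at both ends. Exon 1 is 14 nt in rpl1802 and 22 nt in rpl1801, of which 11 and 19 nt precede the start codon. The spliced transcript is 652 nt in rpl1802 and 783 nt in rpl1801, with 77 and 200 nt after the stop codon. Each gene is covered over its whole length by a transcript annotated on the opposite strand. For rpl1802, all 723 nt lie under the exon of the protein-coding gene SPAPB17E12.14c, outside that gene's coding sequence. For rpl1801, all 835 nt lie under the non-coding RNA SPNCRNA.1594. Neither partner is among the 1144 genes. The strand setting of the counting is not given in the sources used here, nor are the positions of the primers. Whether reads of the opposite-strand partners entered the counts was not tested.

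**Figure D1:**
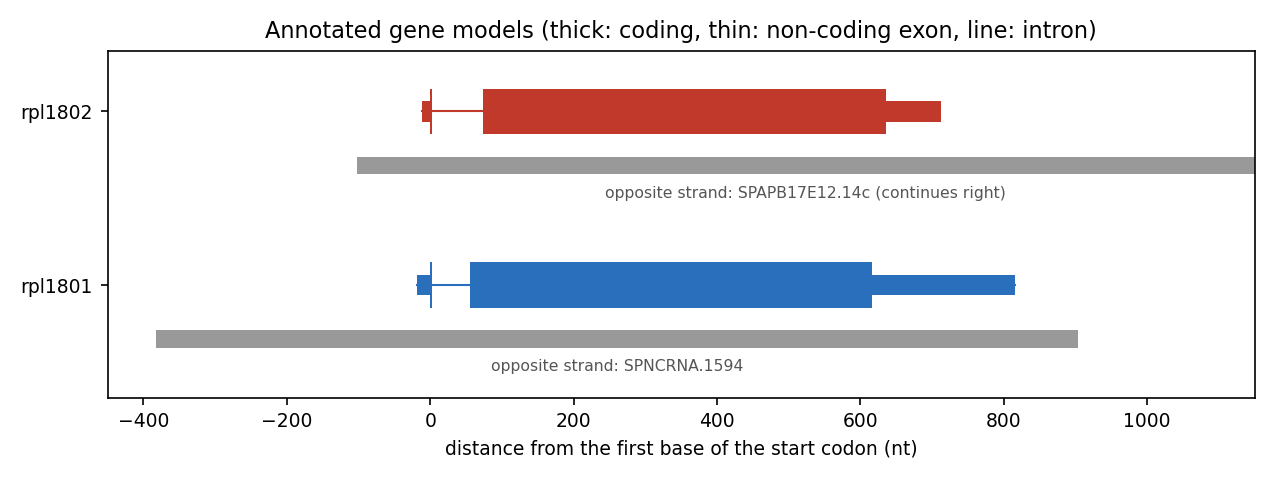
Annotated models of rpl1802 (top) and rpl1801 (bottom), drawn to scale by distance from the first base of the start codon in nt; thick boxes are coding exons, thin boxes non-coding exon parts, the line the intron, and grey bars the transcripts annotated on the opposite strand. In both genes the intron follows the start codon, after an exon 1 of 14 nt in rpl1802 and 22 nt in rpl1801, and the grey bar covers the whole gene.

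Upstream, both copies carry the HomolD box, a promoter element known from fission yeast ribosomal protein genes, at the same distance from the annotated transcript start. The box was searched as CAGTCACA in the 100 bases before the transcript start. In the pair the strand that reads like the RNA was searched, and over all protein-coding genes both strands were. The box was found once in each copy, beginning 46 bases before that start. Of 5123 protein-coding genes, 120 held it in this window (2.34%), and of 139 genes with ribosomal protein symbols, 87 did (62.6%). A match is a description of the letters and not a site shown to be used. The windows, from the plus strand of ASM294v3 at chrI:1285516-1285615 and chrII:3361698-3361797, are shown for the place of this element in each copy, with the box in capitals. The longest run of letters shared by both windows was cctacccta, of 9 bases, beginning 69 bases before the transcript start in rpl1802 and 66 bases before it in rpl1801.
rpl1802: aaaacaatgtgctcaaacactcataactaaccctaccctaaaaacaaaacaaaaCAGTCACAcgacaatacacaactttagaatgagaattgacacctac
rpl1801: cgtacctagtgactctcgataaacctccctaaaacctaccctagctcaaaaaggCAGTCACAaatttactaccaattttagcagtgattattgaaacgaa

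The libraries differed in depth, replicate 1 totalling 5796068 exonic, 634306 mature and 53090 premature counts and replicate 2 10009017, 1194460 and 82204. A sum of at least 50 mature and premature counts in each library was reached by 862 of the genes compared here, the measured genes. The median measured gene differed by 1.44 percentage points in its unspliced share between the libraries. Intervals below are 95% intervals that cover counting error only. Whether the reads carried molecular identifiers is not given in the sources used here, and without them reads are not independent molecules.

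The unspliced share, premature counts over mature plus premature counts, was high in rpl1802 in 1 library and low in rpl1801 in both. For rpl1802, replicate 1 held 426 mature and 397 premature counts, an unspliced share of 48.2% (Wilson interval 44.8 to 51.7). In replicate 2 it had 714 mature and 43 premature counts, a share of 5.68% (4.24 to 7.56). For rpl1801, replicate 1 held 3304 mature and 65 premature counts, a share of 1.93% (1.52 to 2.45). Replicate 2 held 5113 mature and 91 premature counts, a share of 1.75% (1.43 to 2.14). The intervals of rpl1802 in the libraries lie far apart, whereas those of rpl1801 overlap. The mean was 27.0% ± 30.1 for rpl1802 and 1.84% ± 0.128 for rpl1801 (SD, n = 2 libraries). An SD above its own mean makes the mean of rpl1802 a poor summary, so its values are given per library from here on. As annotated, a spliced read of rpl1802 can hold at most 14 nt of exon 1, and one of rpl1801 at most 22 nt. How the authors' alignment and counting treated reads with so few exon 1 bases is not given in the sources used here, and whether it affected the mature and premature counts, and so the unspliced share, was not tested.

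**Figure D2:**
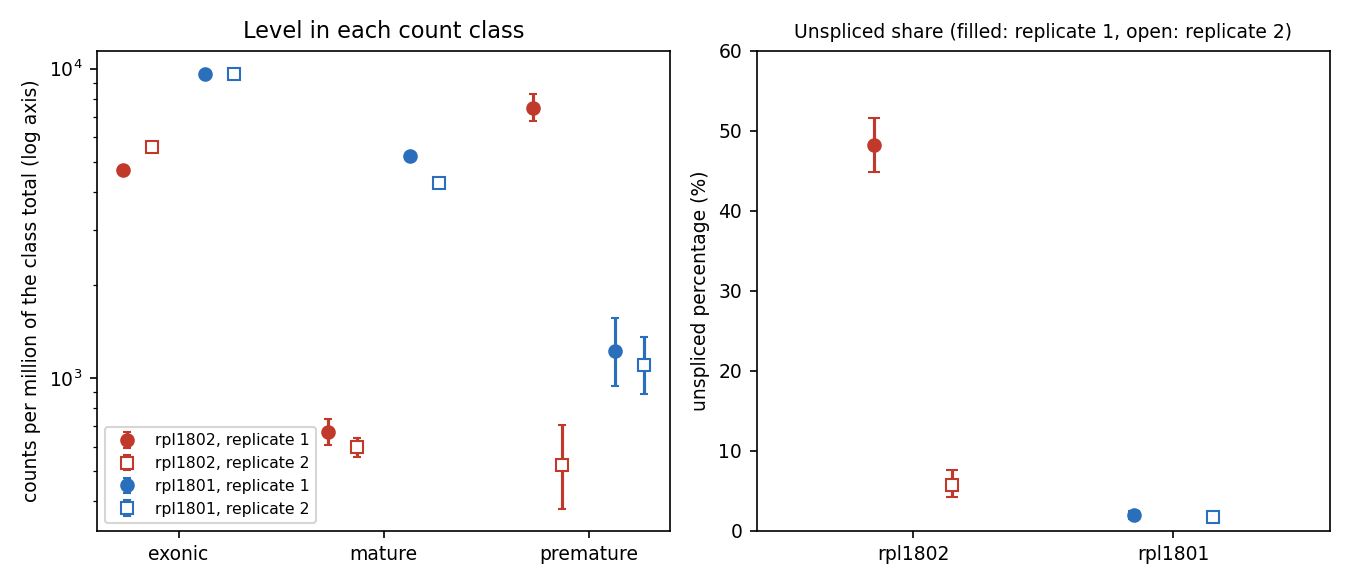
Left, counts scaled to the library's class total (CPM) on a log axis for exonic, mature and premature counts, with exact Poisson intervals; right, the unspliced percentage with Wilson intervals. In each panel rpl1802 is red and rpl1801 blue, filled circles are replicate 1 and open squares replicate 2. The premature count of rpl1802 is the value that differs most, at 7478 CPM in replicate 1 against 523 CPM in replicate 2.

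The library difference of rpl1802 lay in its premature counts. Scaled to a class total of 1000000 counts per library (CPM), the premature count was 7478 CPM in replicate 1 (exact Poisson interval 6760 to 8251) and 523 in replicate 2 (379 to 705). The log2 ratio of replicate 2 over replicate 1 was -3.84 (exact binomial interval -4.33 to -3.38), the lowest of 63 ribosomal protein genes, whose median was -0.0078. Its mature count was 672 CPM in replicate 1 (609 to 739) and 598 in replicate 2 (555 to 643). That log2 ratio was -0.17 (-0.34 to 0.0085), but 0.069 with edgeR's TMM factors and 0.074 with DESeq2's size factors, so it has no settled direction. Its exonic count was 4701 CPM in replicate 1 (4645 to 4757) and 5578 in replicate 2 (5532 to 5625), a log2 ratio of 0.25 (0.23 to 0.27). The exonic ratio was therefore on the other side of 0 from the premature one.

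In rpl1801 all count classes lay within 0.12 (log2) of the median library ratio of all measured genes. The exonic count was 9626 CPM in replicate 1 (9546 to 9706) and 9576 in replicate 2 (9515 to 9637), a log2 ratio of -0.0075 (-0.023 to 0.0076) that became 0.12 with either alternative scaling. The mature log2 ratio was -0.28 (-0.35 to -0.22), and the premature one was -0.15 with an interval that spans 0 (-0.62 to 0.34). With this scaling the median of all measured genes was -0.12 for exonic, -0.23 for mature and -0.083 for premature counts. Relative to those medians, rpl1802 stood at 0.37, 0.058 and -3.75 and rpl1801 at 0.12, -0.057 and -0.062. The exonic ratio of rpl1802 was above that of 46 of the 62 other ribosomal protein genes and that of rpl1801 above 8 of them. For mature counts, rpl1802 was above 8 of the 62 and below 54, and rpl1801 above 3 and below 59. The median mature log2 ratio of the 63 ribosomal protein genes was 0.070, so both copies ranked low in that class.

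Within a library, rpl1802 supplied the smaller part of the pair's exonic and mature counts. Its share of the exonic counts of the pair was 32.8% in replicate 1 (32.5 to 33.1) and 36.8% in replicate 2 (36.6 to 37.1). Per kilobase of annotated spliced transcript, exonic counts were 7210 CPM for rpl1802 and 12294 for rpl1801 in replicate 1, and 8555 and 12230 in replicate 2. How far primer placement, rather than transcript amount, sets such levels was not tested. The rpl1802 share of the mature counts was 11.4% in replicate 1 (10.4 to 12.5) and 12.3% in replicate 2 (11.4 to 13.1), with overlapping intervals. Its share of the premature counts was 85.9% in replicate 1 (82.5 to 88.8) and 32.1% in replicate 2 (24.8 to 40.4). Thus most premature counts of the pair were those of rpl1802 in replicate 1 and those of rpl1801 in replicate 2. The unspliced share of rpl1802 exceeded that of rpl1801 by 46.3 points in replicate 1 and by 3.93 points in replicate 2.

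Both copies gave few mature and premature counts for their exonic counts. Per 100 exonic counts, rpl1802 had 3.02 counts of the mature and premature classes together in replicate 1, and 1.36 in replicate 2. The value for rpl1801 was 6.04 in replicate 1 and 5.43 in replicate 2. The 61 other ribosomal protein genes had medians of 22.3 and 23.2. They ran from 4.92 to 255 in replicate 1 and from 4.27 to 226 in replicate 2, so this ratio is not a share of transcripts. Hence rpl1802 was below all of these 61 genes in both libraries. For rpl1801, 1 of the 61 was lower in each library, in both cases the large subunit gene rpl8. In replicate 1 the premature part alone was 1.46 per 100 exonic counts in rpl1802 (Wilson interval 1.32 to 1.61) and 0.117 in rpl1801 (0.0914 to 0.148). In replicate 2 it was 0.0770 in rpl1802 (0.0572 to 0.104) and 0.0949 in rpl1801 (0.0773 to 0.117). On that scale the copies lay far apart in replicate 1 and had overlapping intervals in replicate 2.

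Other duplicated ribosomal protein genes give the scale for a difference between copies. Families were formed by symbols that end in a number and a copy number, which leaves out rpl35A01 and rpl35A02, and 20 families with 42 measured copies had at least 2 of them. The copies of a family lay over 10 points apart in 10% of the 20 families in replicate 1 and in 5% in replicate 2. In replicate 1 these were the Rpl30 and Rpl18 families, and in replicate 2 it was the Rpl30 family. The Rpl18 pair had the rank 2 by its difference in replicate 1 and the rank 5 in replicate 2. The 19 other families had median differences of 0.569 points in replicate 1 and 0.590 in replicate 2. In the Rpl30 family of the large subunit, rpl3002 was at 52.4% and rpl3001 at 0.885% in replicate 1, and at 48.0% and 0.848% in replicate 2. That difference exceeded 10 points in both libraries, which the difference between the eL18 genes did not. In the Rpl16 family of the large subunit, rpl1603 was at 5.70% and rpl1602 at 0.0917% in replicate 1, and at 7.48% and 0.0803% in replicate 2.

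**Figure D3:**
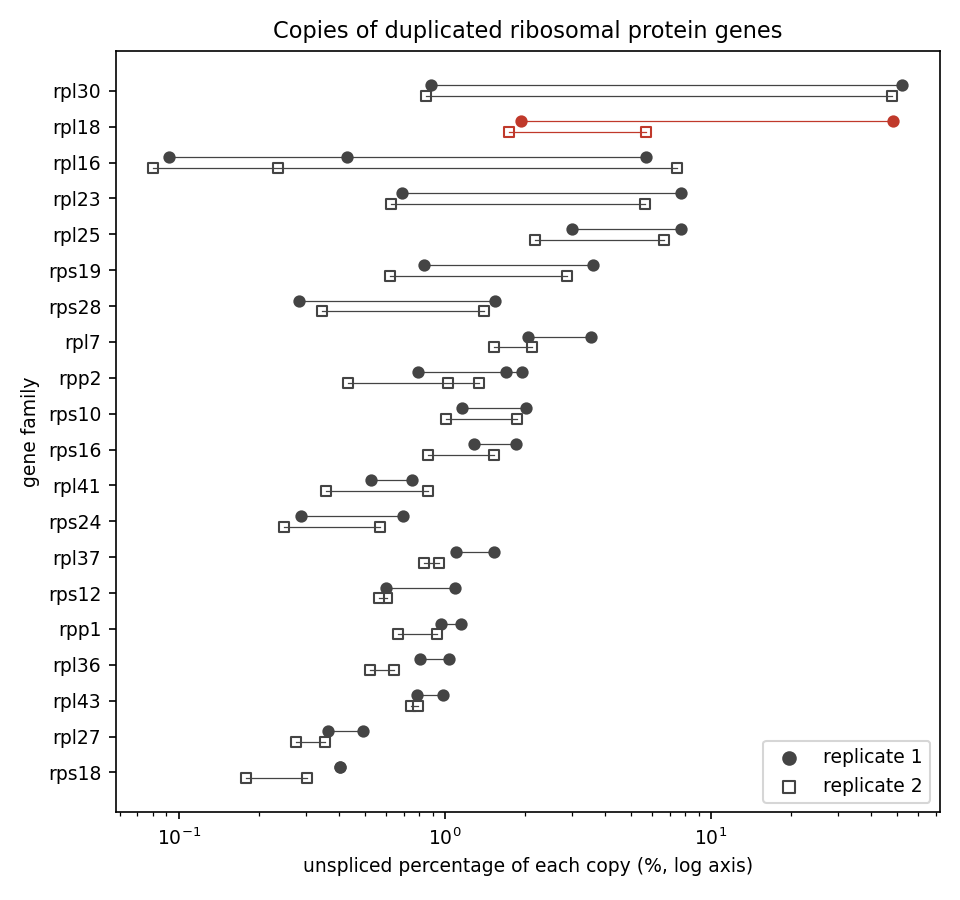
Unspliced percentage (log axis) of every measured copy in 20 duplicated ribosomal protein gene families, ordered from the largest mean difference between copies (top) to the smallest; filled circles are replicate 1, open squares replicate 2, and a line joins the copies of a family. The Rpl18 family, in red, spans 1.93% to 48.2% in replicate 1 and 1.75% to 5.68% in replicate 2.

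The 40 copies compared here from outside the Rpl18 family differed by less than 5 points between the libraries, with a median of 0.230 points. Among all 42 copies, rpl3002 followed rpl1802 with -4.42 points, and rpl2302 came next with -2.07 points. Set among the 61 other ribosomal protein genes, whose median unspliced share was 1.08% in replicate 1 and 0.864% in replicate 2, rpl1802 was exceeded by 2 in replicate 1 and by 8 in replicate 2. For rpl1801 those numbers were 17 and 16, so its place hardly moved.

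Across all genes, 29 of the 862 measured genes (3.36%) differed by more than 10 points between the libraries, and 19 of these 29 were lower in replicate 2. rpl1802 was one of them, and its -42.6 points was the largest difference of the 862. rpl1801, at -0.181 points, had the rank 768, with 94 genes closer to 0. These ranks are of the values that led to the choice of the pair. Most of the 29 genes had few counts: among 407 genes with at least 200 mature and premature counts in each library, 3 differed by more than 10 points, all lower in replicate 2. They were rpl1802, rpl8 and SPBC1711.15c, whose shares in replicates 1 and 2 were 46.1% and 34.3%.

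**Figure D4:**
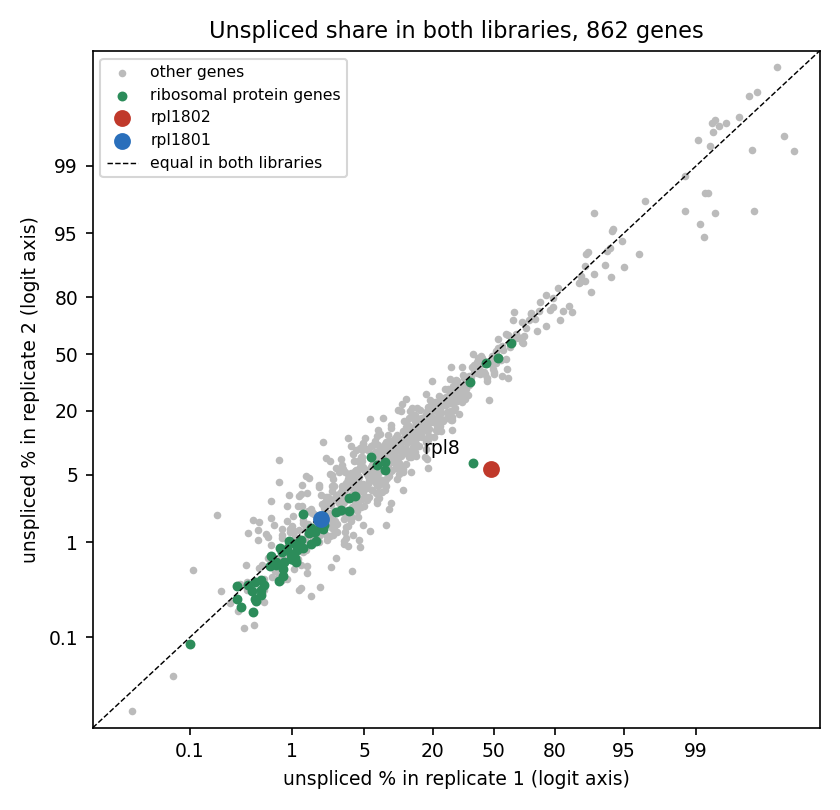
Unspliced percentage in replicate 1 (horizontal) against replicate 2 (vertical) for the 862 measured genes, on logit axes after 0.5 was added to each mature and premature count; green points are ribosomal protein genes, and the dashed line marks equal values. rpl1802 (red) lies far below the line beside rpl8, and rpl1801 (blue) on it.

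The gene with the pattern most like that of rpl1802 was another large subunit protein gene, rpl8 (SPBC29A3.04). Likeness was measured as the distance between logit unspliced shares over the 2 libraries, among 861 other measured genes. rpl8 lay at a distance of 0.431, with 38.4% unspliced in replicate 1 and 6.62% in replicate 2, and was the only gene within a distance of 1. The next were ast1 at 1.30, with 27.3% and 13.2%, and cft2, for a factor of mRNA cleavage and polyadenylation, at 1.43, with 17.8% and 5.32%. Both rest on few counts, 66 and 106 for ast1 and 73 and 94 for cft2. For rpl1801, 167 genes lay within a distance of 1. The nearest were nam9, for a mitochondrial ribosomal protein, at 0.0463, with 1.66% and 1.64%, the small subunit gene rps1001 at 0.0800, with 2.03% and 1.87%, and mdm28 at 0.0983, with 1.83% and 1.49%.

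Among the ribosomal protein genes compared here, those with library differences over 10 points, rpl1802 and rpl8, both had a short annotated exon 1, a comparison made after the values had been seen. Over 836 measured genes with 1 RefSeq intron the median exon 1 was 197.5 nt, and the 14 nt of rpl1802 were the shortest of all. The 22 nt of rpl1801 were undercut by 2 genes. Exon 1 was at most 25 nt in 5 of these genes, of which 4 encode ribosomal proteins. They were rpl1802 at 14 nt, SPAC7D4.13c at 15 nt, rpl1801 at 22 nt, rpl8 at 23 nt and rps901 at 24 nt. Of these, rpl1802 and rpl8 differed by 42.6 and 31.8 points between the libraries. The other 3 differed by less than 4 points, namely SPAC7D4.13c by 3.80, rps901 by 0.367 and rpl1801 by 0.181. None of the 59 ribosomal protein genes with a longer exon 1 differed by more than 10 points, and the largest difference among them was the 4.42 points of rpl3002. A short exon 1 was thus shared by the ribosomal protein genes with large differences and by rpl1801 and rps901, which had small ones.

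**Figure D5:**
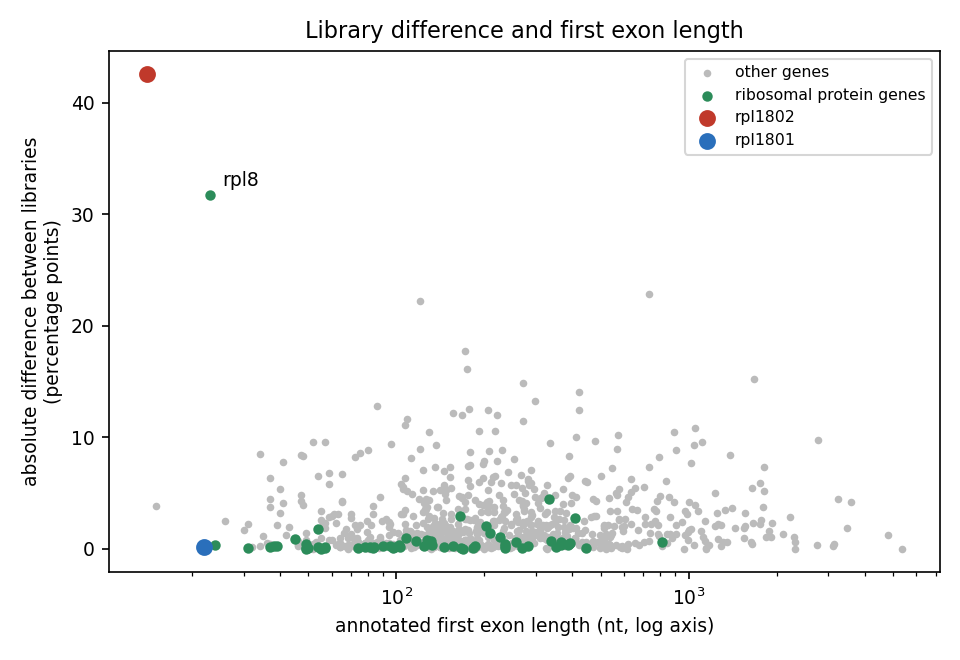
Absolute difference in unspliced percentage between the libraries (percentage points) against the annotated length of exon 1 (nt, log axis) for 836 measured genes with 1 RefSeq intron; green points are ribosomal protein genes. rpl1802 (red, 14 nt, 42.6 points) stands at the upper left with rpl8, and rpl1801 (blue, 22 nt, 0.181 points) at the lower left.

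An intron right after the start codon also occurred in genes with small library differences. This position was shared by 14 measured introns, of which 3 lie in ribosomal protein genes, namely rpl1802, rpl1801 and rpl8. The 11 introns in other genes followed an exon 1 of 36 to 290 nt, and the largest library difference among them was 5.31 points, in ltv1. Among all 836 genes, 24 of the 670 with an exon 1 over 100 nt also differed by more than 10 points. None of these 24 reached the minimum of 200 mature and premature counts in each library, which rpl1802 and rpl8 did. None of the 42 genes with an exon 1 over 25 and up to 50 nt differed by more than 10 points. The part of exon 1 length, of the opposite-strand transcripts and of the primers in the value of rpl1802 was not tested.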

How the data were processed

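Transcripts were measured by multiplexed primer extension sequencing in 2 wild-type libraries. The authors deposited 1 file per library with raw counts per gene, whole numbers in the classes exonic, mature and premature, per the file headers. Tools listed in the submitters' processing notes, without role or order, are HTSeq, HISAT2 2.1.0 and Trimmomatic 0.35. The sources used here do not give the genome build, annotation, strand setting, read length, use of molecular identifiers or the definition of each class. Mature was read as spliced and premature as unspliced, from the names.

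From these counts the unspliced percentage was computed per gene and library, with a minimum of 50 mature and premature counts in each library for comparisons with other genes. Intervals are Wilson for shares, exact Poisson for scaled counts (CPM) and exact binomial for ratios between libraries, all at 95%. Counts were scaled to the library's class total, with edgeR 4.0.16 TMM factors and DESeq2 1.42.0 size factors (R 4.3.3) as alternatives, and neither tool was used for a test. There is no second condition and no p-value. Likeness was the Euclidean distance of logits after adding 0.5 to each count. The genes named were both members, for each the 3 nearest genes, the 3 copies with the largest library difference and the 3 families with the largest difference between copies. Genes over 10 points apart at a minimum of 200 counts, genes with a short exon 1 and genes with an intron after the start codon were named after their values were seen. A further 2 genes are not reported here and were left out of every comparison of counts or introns between genes. Ribosomal protein genes were taken by symbol (rpl, rps or rpp). The members and lists were chosen with earlier results of these data known.

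Gene models and sequences came from RefSeq assembly ASM294v3, in which 1141 of the 1144 genes were matched by systematic ID. Gaps under 20 nt were not taken as introns. Python 3.11.15, scipy 1.17.1, numpy 2.4.6, pandas 2.3.3, Biopython 1.88 and matplotlib 3.10.9 were used. The calculation of shares and library differences was tested on simulated data.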

Additional observations from a re-analysis of the deposited data

How the results depend on the processing

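The unspliced share of rpl1802 rests on which library is taken: left out one at a time, they gave 5.68% and 48.2%, and the difference between the copies was 3.93 and 46.3 points. For rpl1801 the corresponding range was 1.75% to 1.93%, and for the rpl1802 share of the pair's exonic counts 32.8% to 36.8%. Summing counts over both libraries gave 27.8% for rpl1802 and 1.82% for rpl1801. With exonic counts as the denominator the means were 0.767% and 0.106%, a different quantity by construction. The mean difference of logits between the copies was 2.54, of the same sign as the difference in points. With TMM factors, and then with DESeq2 size factors, the exonic log2 ratio of replicate 2 over replicate 1 was 0.37 and 0.38 for rpl1802 and 0.12 and 0.12 for rpl1801. The mature log2 ratio was 0.069 and 0.074 for rpl1802, of opposite sign to the value scaled to totals, and -0.046 and -0.041 for rpl1801. The premature log2 ratio of rpl1802 stayed between -3.84 and -3.75. The number of genes over 10 points apart was 99 at a minimum of 1 count, 65 at 20 and 3 at 200. With 43 premature counts, the share of rpl1802 in replicate 2 is known only within its interval. No paired comparison of conditions was possible because there is 1 group, and the copies were compared within each library.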
